A study of Arabidopsis thaliana with 8 samples.

Results

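Metacaspases are cysteine proteases of plants, fungi and protists that share a fold with animal caspases but cut proteins after arginine or lysine. The *Arabidopsis thaliana* family has 9 members, *MC1* (AT1G02170), *MC2* (AT4G25110), *MC3* (AT5G64240), *MC4* (AT1G79340), *MC5* (AT1G79330), *MC6* (AT1G79320), *MC7* (AT1G79310), *MC8* (AT1G16420) and *MC9* (AT5G04200), and these were taken by their locus identifiers as 9 of the 24492 loci in a table of transcript levels. *MC1*, *MC2* and *MC3* are type I enzymes, which carry an N-terminal prodomain, and *MC4* to *MC9* are type II enzymes, which lack it and have a longer linker between the large and small catalytic parts. All are made as inactive precursors. Most need calcium to become active, and *MC9* is the known exception, working at acidic pH without it. In leaves the family is known above all for cell death during immune responses, where *MC1* promotes and *MC2* opposes the death of infected cells, and for the processing of wound peptides by *MC4*.

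Transcripts were sequenced from rosettes of plants aged 6 weeks, with 3 leaf libraries of WT (Columbia, labelled col) and 3 of the *kaku4* mutant, in a study of leaf senescence. The labels call the mutant *kaku4*-2, and the methods of the study describe it as a homozygous T-DNA insertion line, so that the genotype is represented by 1 insertion line. *KAKU4* encodes a constituent of the plant nuclear lamina. The values are FPKM, that is, fragments counted per length of transcript and per size of the library. Levels can thus be compared between genes per length, but read counts per gene were not at hand. The study's supplement lists the mapped reads of each library, and the depth behind each value was not estimated from them here. The study also has 2 samples of chromatin precipitated for H3K27me3, which were not analysed here.

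*KAKU4* itself was at 6.41, 5.45 and 5.71 FPKM in the WT libraries and at 0.739, 1.26 and 0.943 FPKM in the *kaku4* libraries (replicates 1 to 3 in this order, here and in all lists of values that follow). Of the 20618 genes whose mean over the libraries reached 0.1 FPKM, 3380 (16.4%) were called upregulated and 2371 (11.5%) downregulated in *kaku4* by limma, where a call requires a log2 fold change of 1 or more in either direction together with an adjusted p (Benjamini-Hochberg) no larger than 0.05. The split depended on the scaling, with 6148 upregulated and 411 downregulated genes after rescaling every library to the same total (TPM) and 2302 and 3846 after centring each library on its median. The median log2 fold change of all genes was 0.0021 as deposited, 0.47 in TPM and -0.19 after centring. Fold changes also followed transcript length, from a median of -0.85 in the shortest decile to 1.16 in the longest. Replicate 1 of both genotypes stood apart in summed chloroplast FPKM, with 30587 and 44363 against 499 to 945 in the other libraries. Among the leaf markers, *RBCS1A*, *RCA* and *BCA1* together reached 16021 to 23748 FPKM in every library, whereas the light-harvesting gene *LHCB1.3* was listed at 0 in 5 of the 6 libraries, so that a listed 0 need not be a true absence. The 4 flower and anther markers with values summed to 1.08 to 6.44 FPKM in WT and to 0.141 to 0.267 FPKM in *kaku4*, with AT5G07230 listed at 0 in every *kaku4* library, and the root hair markers stayed at or below 0.0948 FPKM. The part of these differences in the results for the metacaspases was not tested.

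The members differ in sequence and in position, which bears on whether their reads can be told apart. Metacaspases cut with a catalytic pair of a histidine and a cysteine. A single match to the cysteine block was found in each of the 9 coding sequences of the RefSeq annotation of TAIR10.1, and the bases around it are shown because they mark every member as an enzyme of the family and because they include the longest run that MC4 and MC5 share. The codon of the catalytic cysteine is in capitals, with 12 bases before it and 15 bases after it.
MC1: attatcgatgctTGCcatagtggtaccgtt
MC2: atcgtcgacgctTGTcatagtggtaccgtc
MC3: gtcatcgacgccTGTaacagcgggactgtc
MC4: atttcagactctTGTcacagtggtggccta
MC5: atctcagactctTGTcacagtggtggtctc
MC6: atatctgactctTGTcacagtggcggtctc
MC7: gtatcagactctTGTcacagcggcgggctc
MC8: atctcggactctTGTcatagtggtggtctc
MC9: atctctgattctTGCcatagtggtggtctc
The cysteine is residue 220 in MC1, 256 in MC2 and 230 in MC3. It is residue 139 in MC4, MC5, MC6 and MC7, 140 in MC8 and 147 in MC9.

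*MC4* to *MC7* are neighbours. They lie on the forward strand of chromosome 1 within 10800 bases, in the order *MC7* (chr1:29833839-29835728), *MC6* (chr1:29836644-29838140), *MC5* (chr1:29838551-29840317) and *MC4* (chr1:29842587-29844638), each with 2 exons. The other members are apart from them, *MC1* at chr1:411664-413554 on the forward strand with 5 exons, *MC8* at chr1:5612150-5614020 on the reverse strand with 2 exons, *MC2* at chr4:12887474-12890262 on the reverse strand with 5 exons, *MC9* at chr5:1153740-1155040 on the forward strand with 1 exon, and *MC3* at chr5:25695620-25697416 on the forward strand with 3 exons. The most alike of all 36 pairs of proteins came from the tandem genes, at 76.9% identity for MC5 and MC6, 73.6% for MC4 and MC5 and 72.3% for MC4 and MC6. MC1 and MC2 shared 63.7% of aligned residues, and type I proteins shared between 29.2% and 40.1% with type II proteins.

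**Figure D1:**
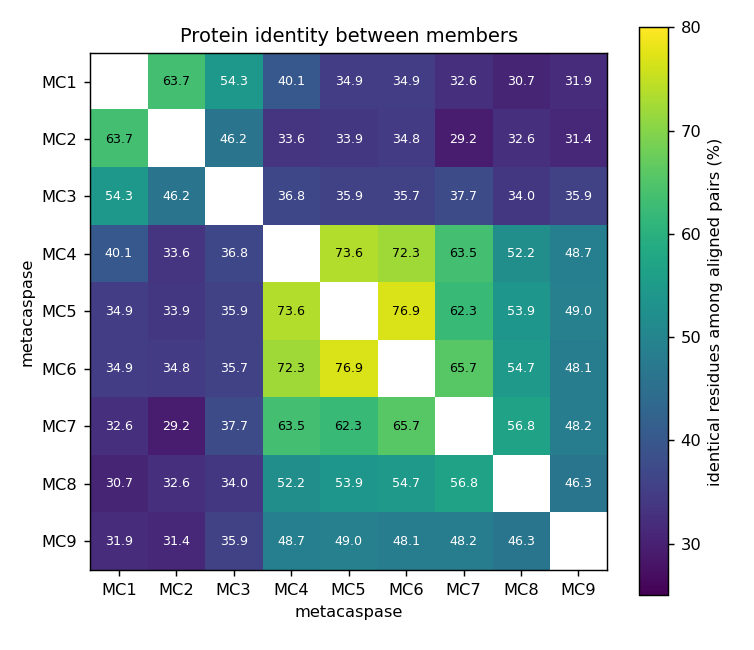
Identical residues as a percentage of aligned residue pairs for each of the 36 pairs of members, from global alignments of proteins translated from RefSeq coding sequences (TAIR10.1). The block of MC4 to MC7 holds values of 62.3% to 76.9%, among them the 3 highest, and every pair of a type I with a type II protein is at or below 40.1%.

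Despite this likeness the transcripts share little exact sequence. The longest run that any pair of member transcripts had in common was 23 bases, found in the pairs *MC4* with *MC5*, *MC5* with *MC7* and *MC6* with *MC7*, whereas the reads were 150 bases long. The run shared by *MC4* and *MC5* covers the cysteine codon shown above. *MC5* is overlapped over 1725 bases by an antisense RNA, AT1G09985, and *MC1*, *MC3* and *MC4* overlap an antisense neighbour by 33, 63 and 18 bases at their ends. The methods of the study name default settings for TopHat2 and Cufflinks, under which neither program uses the strand of a read, so reads from *MC5* and from its antisense RNA cannot be told apart.

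In WT leaves, *MC1* had the highest level of the family, and a few members made up nearly all of it. The order by mean was *MC1* at 41.0 ± 3.14 FPKM (SD, n = 3), *MC4* at 29.2 ± 2.20, *MC2* at 19.9 ± 2.68, *MC3* at 8.75 ± 0.536, *MC9* at 1.52 ± 0.184 and *MC8* at 0.670 ± 0.0839 FPKM. No pair of neighbours in this order overlapped over the 3 WT libraries. *MC5*, *MC6* and *MC7* were each listed at 0 in at least 1 WT library and reached no more than 0.0955 FPKM there, and their ranges overlapped. *MC1*, *MC2* and *MC4* together carried 88.0% to 90.4% of the summed family FPKM in the WT libraries and 88.7% to 89.1% in the *kaku4* libraries.

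In *kaku4* leaves the order changed in the middle. *MC1* stayed highest at 54.8 ± 6.06 FPKM (SD, n = 3), whereas *MC4* at 41.0 ± 4.30 FPKM and *MC2* at 40.5 ± 1.48 FPKM now overlapped. *MC3* followed at 12.5 ± 1.07 FPKM, and *MC9* at 2.22 ± 0.0533 FPKM overlapped with *MC8* at 1.86 ± 0.516 FPKM. *MC6*, *MC7* and *MC5* came last, between 0.0795 and 0.441 FPKM.

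Compared to the WT, metacaspase transcripts were more abundant in *kaku4*. In 8 of the 9 members every *kaku4* library lay above every WT library, the exception being *MC5*. Of the 9 members, 7 passed the filter on low values, and *MC6* did so only through its *kaku4* libraries and therefore had to differ. *MC5* and *MC7* did not pass. All 7 were higher with an adjusted p within 0.05, and *MC2*, *MC6* and *MC8* were called upregulated. *MC6* adds nothing to a comparison with all genes. Apart from it, every tested member had all *kaku4* libraries above all WT libraries, as did 33.5% of all genes tested. Each of these members was also higher with an adjusted p within 0.05, as were 28.6% of all genes tested. Of them, *MC2* and *MC8* were called upregulated, against 16.4% of all genes. None was lower, and 28.3% of all genes tested were. The median log2 fold change of the 7, *MC6* included, was 0.53. Each was positive under all 19 alternative settings, or under 18 for *MC6*, which did not pass a filter at a mean of 1 FPKM. However, *MC1*, *MC3*, *MC4* and *MC9* missed the adjusted p of 0.05 both after centring on the median, where 23.2% of all genes passed it upwards, and after removal of the trend with the GC content of transcripts, where 25.4% did. *MC2*, *MC6* and *MC8* passed it in both. In leaf tissue a change in RNA per cell and a change in the share of the cells that express a gene cannot be told apart.

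**Figure D2:**
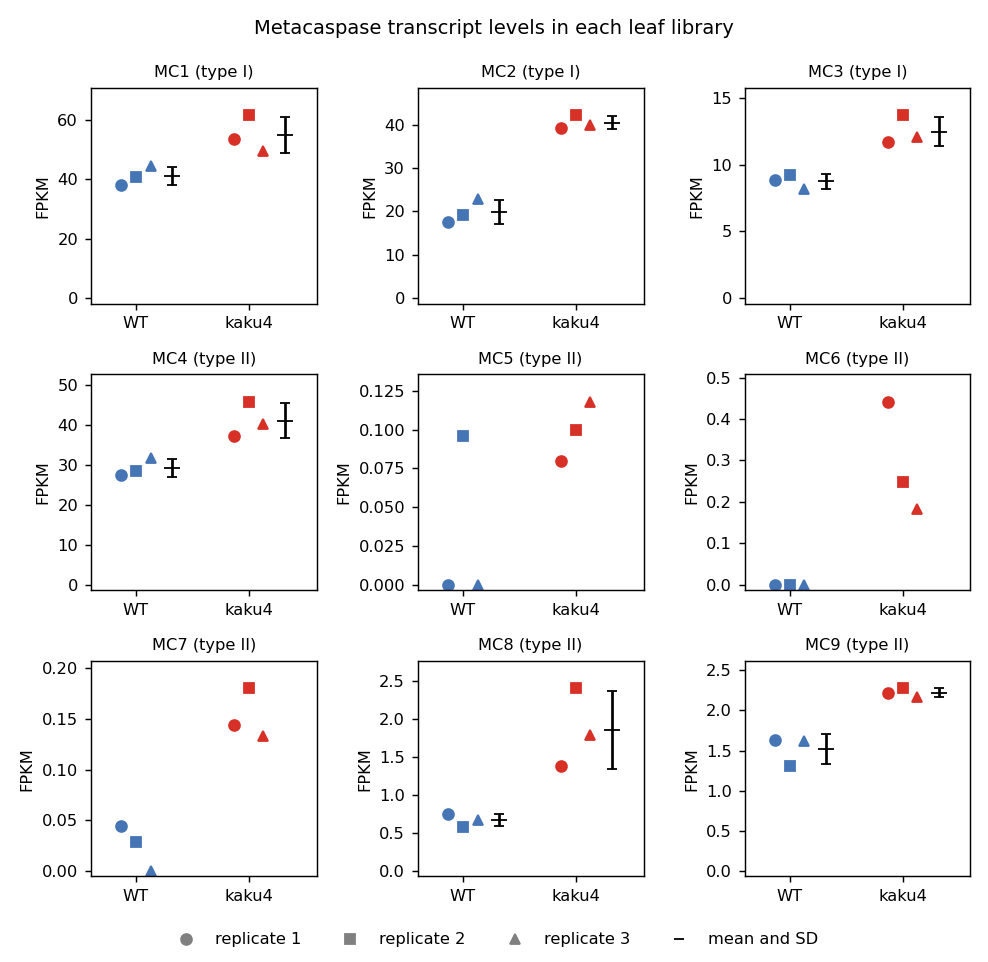
FPKM of each metacaspase in each of the 6 leaf libraries, with WT in blue and *kaku4* in red, 1 marker shape per replicate number, and the mean with its SD beside the points, which is left out for *MC5*, *MC6* and *MC7* because of listed zeros. The y axes differ between panels; all *kaku4* points lie above all WT points in every panel but that of *MC5*, where 1 WT library is at 0.0955 FPKM.

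*MC2* had the largest fold change of the 4 abundant members, *MC1* to *MC4*. It encodes a type I enzyme that in the hypersensitive response opposes the death-promoting action of MC1. *MC2* was at 17.7, 19.1 and 22.9 FPKM in WT and at 39.3, 42.2 and 40.0 FPKM in *kaku4*. The lowest *kaku4* library thus lay well above the highest WT library, and the mean was 2.04 times that of WT. The log2 fold change was 1.03 (SE 0.13, 95% interval 0.73 to 1.33, adjusted p = 6e-04 from limma). Its adjusted p stayed at or below 0.00577 under all 19 alternatives, whereas the call, which asks for a log2 fold change of 1, was met in only 12 of them. It was lost at 0.95 with the length trend removed, with or without a replicate block, at 0.997 with a pseudocount of 1, at 0.83 after centring, at 0.72 with the GC trend removed, at 0.95 without WT replicate 1 and at 0.97 with only replicates 2 and 3 of both genotypes.

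*MC1*, the partner of *MC2* in that response and its closest relative in sequence, rose less. It was at 38.0, 40.8 and 44.3 FPKM in WT and at 53.5, 61.4 and 49.4 FPKM in *kaku4*, without overlap. The log2 fold change was 0.41 (SE 0.13, adjusted p = 0.0248), and it missed the threshold without WT replicate 1 (0.36, adjusted p = 0.0699), WT replicate 2 (0.41, adjusted p = 0.0744) or *kaku4* replicate 2 (0.33, adjusted p = 0.0591) and with only replicates 2 and 3 (0.37, adjusted p = 0.0711). After centring it was 0.22 (adjusted p = 0.175), the lowest of the 19 alternatives.

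The ratio of *MC2* to *MC1* within a library compares the genes directly and does not depend on how a library is scaled. It was 0.465, 0.468 and 0.517 in WT and 0.735, 0.687 and 0.809 in *kaku4*. Every *kaku4* library was above every WT library, with a log2 difference of 0.62 and a two-sided exact permutation p of 0.1, which is the smallest that 3 against 3 libraries allow. With the length trend removed the groups still did not overlap, at 0.522 to 0.577 in WT and 0.580 to 0.728 in *kaku4*, but the log2 difference was 0.30. *MC1* has the shorter transcript, at 1451 nucleotides against 1830 for *MC2*.

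*MC3* encodes the third type I enzyme, which is known from the phloem. It was at 8.89, 9.21 and 8.16 FPKM in WT and at 11.7, 13.7 and 12.1 FPKM in *kaku4*, without overlap. The log2 fold change was 0.51 (SE 0.13, adjusted p = 0.0116), and 0.11 (adjusted p = 0.472) with the GC trend removed. The phloem markers were *SUC2*, a sucrose transporter, and *APL*, a transcription factor of phloem identity. They summed to 41.3 to 46.6 FPKM in WT and 67.7 to 82.1 FPKM in *kaku4*. The sum was mostly *SUC2*, whose mean went from 40.4 to 69.6 FPKM (log2 fold change 0.78, adjusted p = 0.00125). *APL* was at 3.00, 3.81 and 3.04 FPKM in WT and at 3.73, 6.41 and 4.02 FPKM in *kaku4*. Its genotypes overlapped, and it did not pass the test (0.48, adjusted p = 0.111). The part of either marker in the values of *MC3* was not tested.

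*MC4*, the main type II enzyme of leaves, cuts the precursor PROPEP1 after wounding. It was at 27.4, 28.5 and 31.6 FPKM in WT and at 37.2, 45.7 and 40.1 FPKM in *kaku4*, with all *kaku4* libraries above all WT libraries. The log2 fold change was 0.49 (SE 0.13, adjusted p = 0.0119), and 0.11 (adjusted p = 0.378) with the GC trend removed. In a comparison chosen after the values were seen, the ratio of *MC2* to *MC4* went from 0.645 to 0.723 in WT up to 0.923 to 1.06 in *kaku4*, whereas the ratio of *MC1* to *MC4* was 1.39 to 1.43 in WT and 1.23 to 1.44 in *kaku4* and overlapped. The log2 difference of the ratio of *MC1* to *MC4* was -0.075 with a spread within groups of 0.080.

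**Figure D3:**
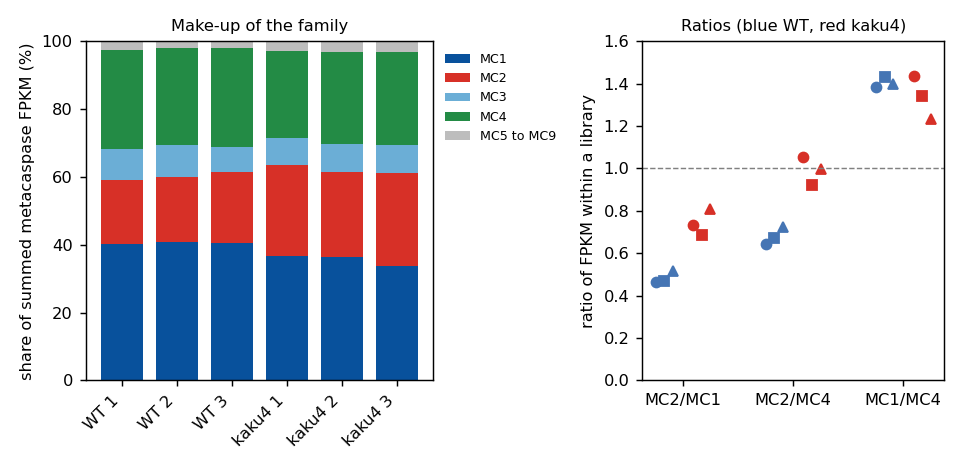
Left, share of each member in the summed metacaspase FPKM of each library, in percent; right, ratios of FPKM within a library, with WT in blue and *kaku4* in red, 1 marker shape per replicate number, and a dashed line at 1. The share of *MC2* was 18.7% to 20.9% in WT and 25.1% to 27.4% in *kaku4*, and that of *MC1* was 40.3% to 41.0% and 33.9% to 36.6%.

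The other tandem genes stayed close to the lower end of the values. *MC5* was listed at 0, 0.0955 and 0 FPKM in WT and at 0.0795, 0.0998 and 0.118 FPKM in *kaku4*, so that the genotypes overlapped. *MC6* was listed at 0 in all 3 WT libraries and was at 0.441, 0.247 and 0.182 FPKM in *kaku4*. It met the criteria with an adjusted p of 0.0104, but its fitted log2 fold change depended on the pseudocount, with 1.91 at the pseudocount of 0.1 used here, 0.36 at 1 and 4.81 at 0.01, and is no measure of size. *MC7* was at 0.0441, 0.0288 and 0 FPKM in WT and at 0.144, 0.180 and 0.133 FPKM in *kaku4*, a separation that was not tested because its mean was below 0.1 FPKM.

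*MC8* had the largest log2 fold change among the members with a value in every library, although *MC2* exceeded it under 2 of the alternatives. It encodes a type II enzyme known to be induced by ultraviolet light and hydrogen peroxide and to promote the cell death that follows. *MC8* was at 0.752, 0.584 and 0.674 FPKM in WT and at 1.38, 2.41 and 1.79 FPKM in *kaku4*. The lowest *kaku4* library lay above the highest WT library, and the mean was 2.78 times that of WT. The log2 fold change was 1.32 (SE 0.27, 95% interval 0.71 to 1.94, adjusted p = 0.00364). It was called in 17 of the 19 alternatives and fell below a log2 fold change of 1 at a pseudocount of 1, with 0.76 against 0.997 for *MC2*, and after quantile normalization, with 0.96 against 1.26 for *MC2*. It was 1.58 with only replicates 2 and 3.

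*MC9* acts in developing xylem, where it takes part in the clearing of the dead vessel cell. It was at 1.64, 1.31 and 1.62 FPKM in WT and at 2.22, 2.28 and 2.17 FPKM in *kaku4*, without overlap and with little spread in the mutant. The log2 fold change was 0.53 (SE 0.19, adjusted p = 0.0457), and the adjusted p was above 0.05 in 13 of the 19 alternatives, among them the removal of any 1 library (adjusted p from 0.0529 without WT replicate 1 to 0.149 without WT replicate 2). With the GC trend removed the log2 fold change was 0.12 (adjusted p = 0.596). The 8 xylem genes described with the linked lists summed to 15.1 to 16.7 FPKM in WT and 16.9 to 18.5 FPKM in *kaku4*. The sum was mostly *XCP1*, whose mean went from 7.07 to 6.08 FPKM, and *XCP2*, whose mean went from 6.13 to 8.14 FPKM. Of the 8 genes, 0 passed an adjusted p of 0.05 by limma, beside 28.6% higher and 28.3% lower of all genes tested. The part of the xylem genes in the values of *MC9* was not tested.

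**Figure D4:**
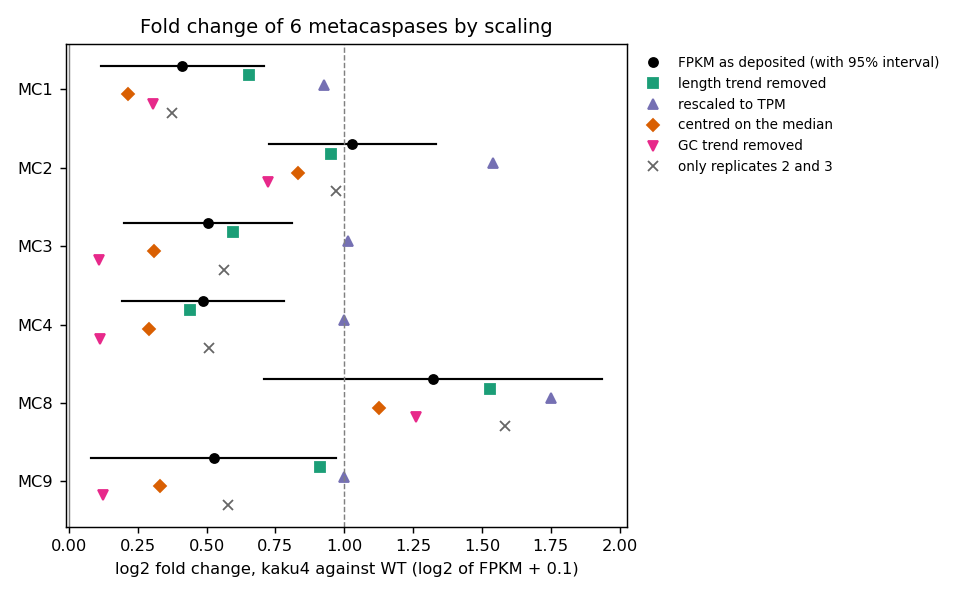
Log2 fold change of 6 metacaspases in *kaku4* against WT from limma, for FPKM as deposited (black, with 95% interval) and 5 alternatives, with a dashed line at the log2 fold change of 1 that a call requires. Every point is above 0, and *MC2* and *MC8* are the highest under each of these settings; *MC6* is left out because its fitted value depends on the pseudocount.

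As a family, the 9 members summed to 94.4, 99.7 and 109.2 FPKM in the WT libraries and to 146.0, 168.1 and 146.0 FPKM in the *kaku4* libraries, without overlap. The mean was 1.52 times that of WT, a log2 difference of 0.60. The type I members summed to 69.7 ± 5.39 FPKM (SD, n = 3) in WT and to 107.7 ± 8.35 FPKM in the mutant, with a log2 difference of 0.63. The type II members, nearly all of it *MC4*, summed to 31.4 ± 2.20 and 45.6 ± 4.80 FPKM, a log2 difference of 0.53. The two-sided exact permutation p was 0.1 for each of these 3 sums, the smallest that the design allows. In TPM the log2 differences were 1.14 for type I, 1.05 for type II and 1.12 for all 9 members, against a median of 0.47 over all genes. The sums were not computed after centring or with the GC trend removed, which both lowered the abundant members. After centring the log2 fold changes of *MC1* to *MC4* were 0.22, 0.83, 0.31 and 0.29, beside 0.41, 1.03, 0.51 and 0.49 as deposited. With the GC trend removed they were 0.31, 0.72, 0.11 and 0.11.

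Transcript length, which fold changes followed across the genome, also bears on comparisons between the members. The log2 difference of the ratio of *MC2* to *MC1* was 0.62 as deposited and 0.30 with the length trend removed. The member transcripts are 1301 to 1830 nucleotides long, around the median of 1688 nucleotides of the genes tested. The 3 length deciles that hold them had median log2 fold changes of -0.36, -0.15 and 0.03, and each tested member lay above the median of its decile. With the length trend removed, all 7 tested members were still higher with an adjusted p within 0.05, where 20.2% of all genes were. *MC6* and *MC8* were called, as were 7.77% of all genes. *MC6*, which passed the filter only through its *kaku4* libraries and had to differ, adds nothing to these comparisons. Apart from *MC6*, only *MC8* was called. The value of *MC8* was then 1.53 (adjusted p = 0.0031), that of *MC9* 0.91 (adjusted p = 0.00485) and that of *MC2* 0.95 (adjusted p = 8.05e-04).

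*MC2* is also the member whose chromatin the study probed by ChIP-qPCR. The primers MC2-FP, GACTATCACCGCTCGCTTCT, and MC2-RP, ACCTTCTCCGTACACTCACG, each match the genome once, in exon 1, and enclose 163 bases of coding sequence at chr4:12889591-12889753, 509 to 671 bases after the gene start. The amplicon is shown on the strand of the gene, since it is the part of the gene that the study chose for the assay, with the 20 bases of each primer site in capitals.
MC2 amplicon: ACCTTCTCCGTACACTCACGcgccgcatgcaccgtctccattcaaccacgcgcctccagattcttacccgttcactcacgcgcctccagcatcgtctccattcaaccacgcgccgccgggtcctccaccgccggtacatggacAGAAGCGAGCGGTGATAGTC
No measurement of the mark at this site was analysed here.

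The promoters of the members were searched for the W-box, the site that WRKY transcription factors bind, and for the core ACGTG of elements for abscisic acid, on both strands from 250 bases before to 50 bases after each gene start in TAIR10.1. The core TTGAC was present in 5 of the 9 members (*MC2*, *MC3*, *MC5*, *MC6* and *MC9*) and in 50.7% of 24292 promoters of the loci in the table. The longer forms TTGACC or TTGACT, which contain that core, were present in 3 of 9 (*MC2*, *MC5* and *MC9*) and in 32.6% of promoters, and ACGTG in 2 of 9 (*MC4* and *MC7*) and in 27%. These shares are near the background. *MC2* was the only member with 2 cores, and the share of all promoters that hold 2 was not counted. Its stretch at chr4:12890298-12890347 (reverse strand, positions -85 to -36 from the gene start) is shown on the strand of the gene with both cores in capitals, read here from the other strand as GTCAA.
MC2 upstream stretch: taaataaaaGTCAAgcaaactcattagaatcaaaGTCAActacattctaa
A match is a description of the letters and not evidence of binding.

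Genes that are known to act with metacaspases or in plant cell death were described as 7 lists of 40 genes, of which 38 had a row in the table used and 37 were tested. Of the 37, 13 were called upregulated and 1 downregulated, beside 16.4% and 11.5% of all genes tested, and the median log2 fold change was 0.59 beside 0.0021 for all genes. With the length trend removed, 9 were called upregulated, beside 7.77% of all genes tested, and the median was 0.57. *GRI*, which encodes the precursor of a peptide that MC9 releases, and *deltaVPE* were not analysed here, and *PRK5*, the receptor kinase for that peptide, was below the filter.

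Of the LSD1 zinc finger family, 1 of 3 genes was higher with an adjusted p within 0.05, beside 28.6% of all genes tested. In this list 0 were called, beside 16.4% upregulated and 11.5% downregulated of all genes tested. *LSD1*, a zinc finger protein that binds MC1 and restrains cell death, rose from 29.7, 28.2 and 28.8 FPKM in WT to 44.4, 44.6 and 43.0 FPKM in *kaku4* (log2 fold change 0.60, SE 0.11, adjusted p = 0.00198). *LOL1*, a related protein with the opposite role, was at 27.5, 27.5 and 30.1 FPKM in WT and at 22.5, 26.97 and 26.7 FPKM in *kaku4*. The change in log2 of -0.16 (95% interval -0.45 to 0.13) did not pass the test and was 0.35 in TPM, but *LOL1* was lower after centring (-0.36, adjusted p = 0.0309) and with the length trend removed (-0.48, adjusted p = 0.00695). *LOL2*, the remaining gene of the list, was at -0.04 (95% interval -0.43 to 0.36) and, with the length trend removed, at 0.82 (adjusted p = 0.0224). With that trend removed, 2 of the 3 genes were thus higher and 1 lower within an adjusted p of 0.05. Of the 20618 genes tested, 4158 were then higher and 4129 lower. *SERPIN1*, the protease inhibitor of MC1, rose from 11.6 ± 0.864 to 15.1 ± 1.23 FPKM (SD, n = 3; log2 fold change 0.38, adjusted p = 0.0367). It missed the threshold after centring (0.18, adjusted p = 0.223) and without 5 of the 6 libraries in turn, the exception being *kaku4* replicate 1.

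The immune receptors linked to *MC1* and *MC2* were all called upregulated, 4 of 4, beside 16.4% of all genes tested. *SNC1*, a receptor of the TIR-NB-LRR class, rose from 5.39, 5.97 and 5.87 FPKM to 14.6, 22.1 and 19.1 FPKM (log2 fold change 1.66, adjusted p = 3.1e-04). The helper receptors *ADR1*, *ADR1-L1* and *ADR1-L2* had log2 fold changes of 1.91, 1.79 and 1.55. The transcripts of the 4 receptors are 2837 to 4897 nucleotides long. They fall in length deciles 9 and 10, whose median log2 fold changes over all genes were 0.74 and 1.16. With the length trend removed all 4 were still higher with an adjusted p within 0.05, beside 20.2% of all genes tested. Only *ADR1* was then called, at 1.13, beside 7.77% of all genes tested, and *SNC1* was at 0.37.

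**Figure D5:**
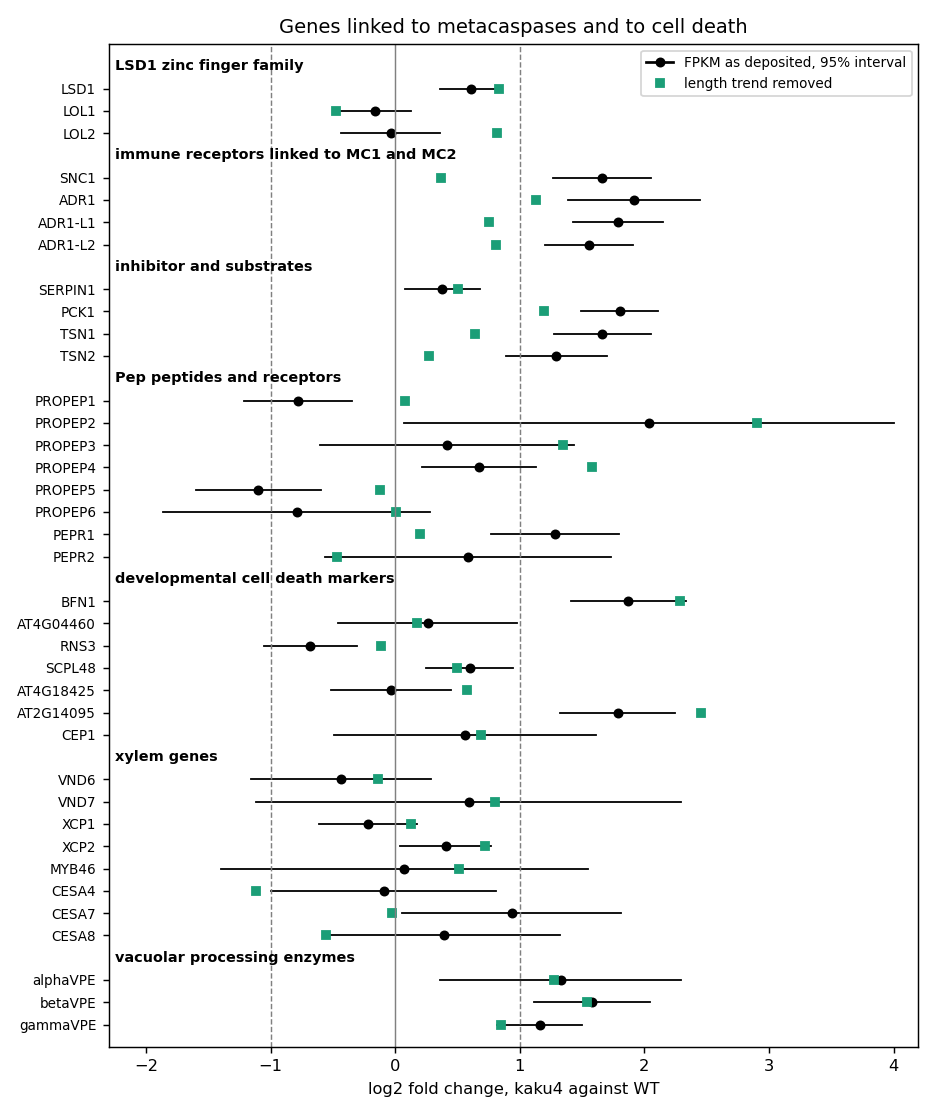
Log2 fold change in *kaku4* against WT of the 37 tested genes of the 7 linked lists, as deposited (black circles with 95% intervals) and with the length trend removed (green squares), with dashed lines at -1 and 1. The circles of the 4 immune receptors lie between 1.55 and 1.91 and their squares between 0.37 and 1.13, whereas both marks of *BFN1* are above 1.8.

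Among the known substrates, *PCK1*, a phosphoenolpyruvate carboxykinase that MC9 cuts, rose from 18.6 ± 1.85 to 65.1 ± 7.24 FPKM (SD, n = 3; log2 fold change 1.80, SE 0.14, adjusted p = 1.02e-04) and stayed called with the length trend removed, at 1.19. *TSN1* and *TSN2* encode Tudor staphylococcal nucleases, whose relative in Norway spruce is cut by a metacaspase. They had log2 fold changes of 1.66 and 1.29, and neither was called with the length trend removed, at 0.64 and 0.27.

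The precursors of the Pep wound peptides did not move as 1 group. *PROPEP1*, the substrate of MC4, fell from 15.9, 13.2 and 17.1 FPKM in WT to 10.8, 6.90 and 9.38 FPKM in *kaku4* (log2 fold change -0.78, adjusted p = 0.00833), opposite to *MC4*, and missed the threshold in TPM (-0.27, adjusted p = 0.217). *PROPEP5* fell from 32.5, 28.8 and 31.3 to 16.0, 9.91 and 18.7 FPKM and was called downregulated, at -1.10, though not without *kaku4* replicate 2, at -0.83. *PROPEP4* rose, at 0.67 (adjusted p = 0.0202), and missed the threshold with only replicates 2 and 3 (0.52, adjusted p = 0.115) and without 4 of the 6 libraries in turn, the exceptions being WT replicate 3 and *kaku4* replicate 2. *PEPR1*, a receptor of these peptides, was called upregulated at 1.28, from 0.840 ± 0.0420 to 2.20 ± 0.387 FPKM (SD, n = 3). The precursor transcripts are short, at 416 to 811 nucleotides, and *PEPR1* is 3828 nucleotides long. With the length trend removed *PROPEP1* was at 0.08, *PROPEP5* at -0.12 and *PEPR1* at 0.20, none of which passed the test. *PROPEP2*, *PROPEP3* and *PROPEP4* were then called upregulated at 2.90, 1.35 and 1.58. As deposited, *PROPEP2* (2.04, adjusted p = 0.0721) and *PROPEP3* (0.41, adjusted p = 0.454) did not pass the test, and the genotypes of *PROPEP3* overlapped. *PROPEP2* was listed at 0 in WT replicate 1. Its fitted value depended on the pseudocount, with 0.89 at 1 and 3.16 at 0.01, and is no measure of size.

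Of 7 markers of developmental cell death, 2 were called upregulated and 0 downregulated, beside 16.4% and 11.5% of all genes tested. With an adjusted p within 0.05, 3 were higher and 1 was lower, beside 28.6% and 28.3% of all genes tested. *BFN1*, a nuclease of senescing and dying cells, rose from 1.70, 2.42 and 2.76 FPKM to 8.05, 8.24 and 9.27 FPKM (log2 fold change 1.87, SE 0.20, adjusted p = 3.5e-04). AT2G14095 rose from 1.05 ± 0.193 to 3.85 ± 0.253 FPKM (SD, n = 3), at 1.78. The ribonuclease gene *RNS3* fell, with a log2 fold change of -0.68 (adjusted p = 0.00735), and was at -0.12 with the length trend removed and at -0.17 (adjusted p = 0.518) in TPM. *BFN1* and AT2G14095 were still called with the length trend removed, at 2.29 and 2.45, beside 7.77% of all genes tested. AT3G45010 was higher without a call (0.60, adjusted p = 0.0103) and missed the threshold with the GC trend removed (0.24, adjusted p = 0.15). AT4G04460 (0.26), AT4G18425 (-0.03) and AT5G50260 (0.56) did not pass the test as deposited. With the length trend removed AT4G18425 was higher (0.57, adjusted p = 0.0283).

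The xylem genes, among them the vessel regulators *VND6* and *VND7* and the xylem proteases *XCP1* and *XCP2*, gave 0 of 8 genes called in either direction. Of all genes tested, 16.4% were called upregulated and 11.5% downregulated. Of the 8, 0 were within an adjusted p of 0.05 by limma, beside 28.6% higher and 28.3% lower of all genes tested. At an unadjusted p within 0.05 there were 2 (*XCP2* and *CESA7*). *CESA7*, a cellulose synthase of secondary walls, had the largest log2 fold change of the 8, at 0.94 (95% interval 0.06 to 1.81, adjusted p = 0.0659). *XCP2*, at 0.40 (adjusted p = 0.0578), was the only one whose genotypes did not overlap. Without WT replicate 1 it passed the threshold (0.50, adjusted p = 0.0375), and *CESA7* did so without WT replicate 3 (1.21, adjusted p = 0.0415) or *kaku4* replicate 1 (1.13, adjusted p = 0.047). *CESA4*, another of these cellulose synthases, was at 0.993, 0.820 and 0.852 FPKM in WT and at 0.397, 1.29 and 1.04 FPKM in *kaku4*, with overlap. Its log2 fold change was -0.09 as deposited and 0.43 (adjusted p = 0.187) with only replicates 2 and 3, but it was called downregulated with the length trend removed (-1.12, adjusted p = 0.023). With that trend removed *XCP2* was higher at 0.72 (adjusted p = 0.00976). In TPM *XCP2* was higher at 0.91 (adjusted p = 0.00494) and *CESA7* was called upregulated at 1.31 (adjusted p = 0.0245).

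The vacuolar processing enzymes, like metacaspases, are caspase-like cysteine proteases of plant cell death. Of these, 3 of 3 genes were called upregulated, beside 16.4% of all genes tested. The log2 fold changes were 1.33, 1.58 and 1.16 for *alphaVPE*, *betaVPE* and *gammaVPE*. *alphaVPE* missed the adjusted p of 0.05 without WT replicate 1, WT replicate 3 or *kaku4* replicate 1 (0.0513 to 0.0828) and with only replicates 2 and 3 (0.0832), as well as after quantile normalization (1.09, adjusted p = 0.0629) and with the GC trend removed (1.04, adjusted p = 0.0761), and at a pseudocount of 1 its log2 fold change was 0.51. *gammaVPE* was not called after centring, at 0.96, or with the length trend removed, at 0.85. With that trend removed 2 of the 3 were called, beside 7.77% of all genes tested. *gammaVPE*, the enzyme of leaf vacuoles, was at 86.1 to 113.4 FPKM in the WT libraries and at 204.6 to 245.3 FPKM in the *kaku4* libraries, and it exceeded the sum of all 9 metacaspases in every library but WT replicate 1.

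Of all genes tested, those with the highest Pearson correlation of log2(FPKM + 0.1) with a called member over the 6 libraries, taken as a description, were AT1G07220, AT4G37520 and the arginase gene *ARGAH2* for *MC2*, each with r = 0.999. For *MC8* they were the ABC transporter gene *ABCB21*, AT4G36860 and AT4G30100, each with r = 0.999. For *MC6*, whose WT values are all listed at 0, they were AT2G15340 (r = 0.998), AT1G48325 (r = 0.997) and AT1G23040 (r = 0.997). The 6 libraries share the difference between the genotypes, and each of these is among the highest of 20618 values.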

How the data were processed

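RNA was measured in leaves of WT and *kaku4* rosettes aged 6 weeks, with 3 libraries per genotype that were grouped by GEO's labels. The authors aligned 150-bp paired-end reads to TAIR10 with TopHat2 2.0.9 and deposited FPKM values from Cufflinks, 1 value per locus and library, already scaled by transcript length and library size. Of 24492 loci, 1442 hold no number in any library, only a spreadsheet error mark, and were left out. Because of these marks the deposited columns were recorded under a general unit in an automatic check. The values themselves are FPKM, as the header states. Counts per gene were not at hand, so the study's DESeq2 test was not repeated. Depth per gene was not estimated from the mapped reads per library that the study lists. The methods describe independent biological replicates.

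From the deposited FPKM, log2(FPKM + 0.1) was tested for the 20618 genes whose mean reached 0.1 FPKM. The test was that of limma 3.58.1 (R 4.3.3), with eBayes using a mean-variance trend, no covariates and Benjamini-Hochberg adjustment over all genes tested. A log2 fold change on this scale understates the change of low genes. Sums and ratios of members were compared by exact permutation tests (scipy 1.17.1). Length and GC trends were removed by a lowess curve (span 0.4) in each library. Lengths, coordinates and sequences were read from RefSeq's annotated TAIR10.1 by locus, whereas the authors name TAIR10. Proteins were translated from its coding sequences and aligned with Biopython 1.88. The fit was tested on simulated data. It recovered 65% to 73% of the genes given log2 changes of 1.5 or 2 in size and called 6 of 20418 unchanged genes. Smaller changes, such as those of every tested member but *MC6*, were not tried. With a length trend added it called 662 of the unchanged genes, and 5 after that trend was removed. The added trend was a straight line in log2 length, which need not match the trend in these data. The main fit did not remove the length trend. Besides it, 19 alternatives were run.

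The members and the lists were chosen with earlier results of these data known. Named were *KAKU4*, all 9 members, the genes of the lists, the markers and, for each called member, the 3 genes most correlated with it. A gene whose symbol RefSeq does not pair with its locus is named by locus.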

Additional observations from a re-analysis of the deposited data

How the results depend on the processing

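The direction of 6 tested members held under all 19 alternatives, and that of *MC6* under the 18 that tested it. The count of members called upregulated, 3 as deposited, was 0 at a pseudocount of 1 and 5 in TPM, and at an adjusted p of at most 0.05 it was 3 rather than 7 after centring or with the GC trend removed. Over all genes, 3380 upregulated and 2371 downregulated genes became 1743 upregulated at a pseudocount of 1, 6148 and 411 in TPM, 3846 downregulated after centring, and 1602 and 1075 with the length trend removed. Of the linked genes, the 1 called downregulated, *PROPEP5*, was lost (0) in TPM, after quantile normalization, with the GC trend removed and without *kaku4* replicate 2. With the length trend removed, with or without a replicate block, *PROPEP5* was also lost, at -0.12, and *CESA4* was called instead, at -1.12. The log2 differences of summed FPKM were 1.14 (type I), 1.05 (type II) and 1.12 (all members) in TPM. The sums were not computed after centring or with the GC trend removed. The log2 difference of the ratio of *MC2* to *MC1* was 0.30 with the length trend removed. The cause of these shifts was not tested, beyond what each rescaling does by construction. Leaving out 1 library at a time gave 2648 to 3767 upregulated and 1616 to 2994 downregulated genes, 0 to 1 linked genes called downregulated, and log2 fold changes of 0.95 to 1.13 for *MC2* and 1.13 to 1.51 for *MC8*.

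The replicate numbers were not treated as pairs, because the deviations of same-numbered libraries correlated at 0.31, 0.08 and 0.01, and WT replicates 2 and 3 each correlated best with another number. A replicate block gave 3410 upregulated and 2481 downregulated genes and, with the length trend removed as well, 1640 and 1100. Under the block alone *MC9* missed the threshold (adjusted p = 0.0717), and the paired log2 difference of the ratio of *MC2* to *MC1* was 0.62. What depth limits cannot be stated from FPKM alone and was not estimated here. The low members *MC5*, *MC6* and *MC7* are the least certain.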
